A study of Mus musculus with 31 samples.

Results

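Inguinal white adipose tissue (iWAT), the subcutaneous fat pad of the groin, was compared by RNA-seq between mice held at 4 °C for 4 days (day 4) and mice killed at thermoneutrality (day 0). The comparison was defined by depot and day and takes in 9 of the series' 31 libraries. It was chosen, as were the gene lists and the tests, with earlier results of these data known. Day 4 has 5 libraries (iWAT548, iWAT550, iWAT551, iWAT553 and iWAT555) and day 0 has 4 (iWAT516, iWAT517, iWAT518 and iWAT522). All mice were C57BL/6J males aged 8 weeks, with no transgene or drug named, and all of them, the day 0 mice included, had first lived for 8 days at thermoneutrality. The 3 iWAT libraries of mice held at 4 °C for 2 days (day 2) entered the fit for its estimate of the spread. Epididymal white fat (eWAT) and interscapular brown fat (iBAT), with 3 libraries each at day 4 and at day 0, are used to show where iWAT differed. They also set the axis on which the iWAT libraries are scored below. The labels do not say whether a library came from 1 mouse or from several, so p-values measure the spread between libraries.

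In the cold, sympathetic nerves release noradrenaline onto beta-adrenergic receptors of adipocytes, cyclic AMP rises, and stored triglyceride is broken down to fatty acids. In brown adipocytes, and in the beige adipocytes that can appear within inguinal fat, these fatty acids both fuel the respiratory chain and activate uncoupling protein 1 (UCP1), which lets protons return across the inner mitochondrial membrane as heat. The inguinal pad also holds a lymph node and lies against skin and body wall muscle, so RNA of those tissues can come with it. In bulk RNA, fewer cells of a type and less RNA per cell cannot be told apart.

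Total counts per library ran from 1.5 to 5.53 M at day 4 and from 1.51 to 3.42 M at day 0, and features with counts from 10820 to 14771 at day 4 and from 11647 to 13494 at day 0. Of 16418 accessions in the table, 9574 passed the filter on low counts and were tested. Levels are given in CPM, each count scaled to a library of common size by the TMM method, and a log2 change is day 4 minus day 0. The common biological coefficient of variation was 0.538, a wide spread between replicates. The iWAT libraries were also scored along the main axis of differences between replicates of eWAT and iBAT, with its sign set by Cox8b. On this axis iWAT550, iWAT551 and iWAT553 (day 4) and iWAT516, iWAT517 and iWAT518 (day 0) lay on the high side of a gap. On the low side were iWAT548 and iWAT555 (day 4) and iWAT522 (day 0).

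The tissue label was set against 3 adipocyte defining markers (Adipoq, Cidec and Fabp4), none of which was at 0 in either group. Their summed level was 8349 to 41917 CPM of the plain total at day 4 (median 35139) and 10653 to 25138 CPM at day 0 (median 20061). The day 4 library iWAT555 stood apart: it had the lowest adipocyte sum of the 9, and the most counts (5.53 M) and features with counts. It also had the highest B cell sum (3560 CPM) and 3676 CPM of sperm and epididymis markers, against 1.87 to 26.7 CPM in the other 4 day 4 libraries. By Adipoq alone it was not the lowest, with 1034 CPM against 478 CPM in iWAT550, 830 CPM in iWAT516 and 759 CPM in iWAT518. The counterpart of iWAT555 at day 0 was iWAT522, with 983 CPM of sperm and epididymis markers against 9.07 to 121 CPM in the other 3. For many genes iWAT555 sat nearest to day 0, so leaving it out raises the number of calls by construction. Each of the 9 libraries was therefore left out in turn, and calls made without iWAT555 are given as a description and not as support.

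**Figure D1:**
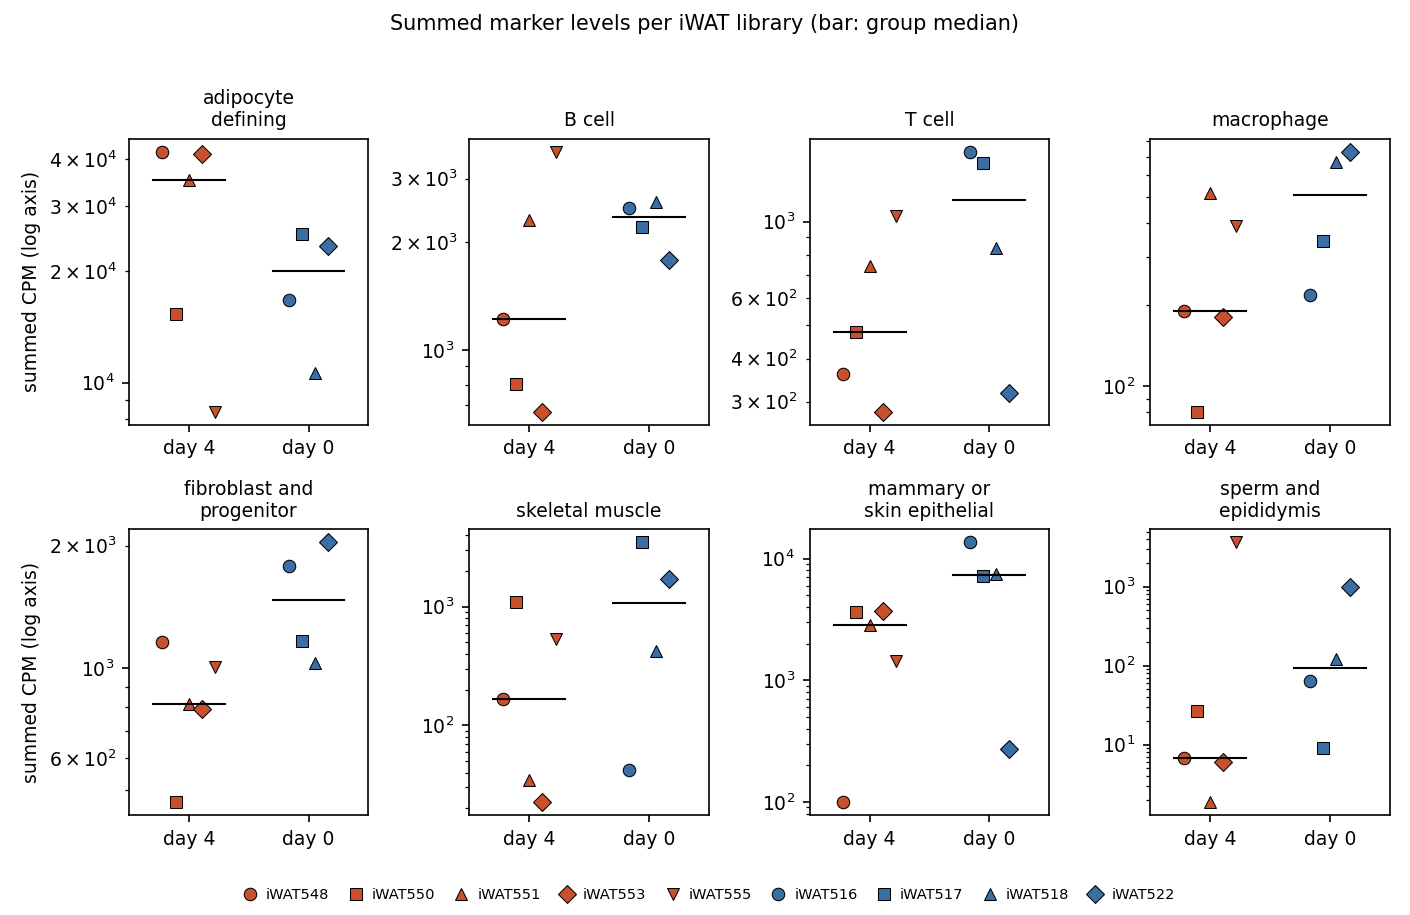
Summed CPM (log axis, plain totals) of 8 marker lists in each of the 5 day 4 libraries (left, red) and the 4 day 0 libraries (right, blue), 1 symbol per library, with a bar at the group median. iWAT555 has the lowest adipocyte sum (8349 CPM) and the highest sperm and epididymis sum (3676 CPM), and the groups overlap for all 8 lists.

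The first question was which genes differed in iWAT after 4 days of cold. Thermogenic genes, genes of fatty acid oxidation, of the tricarboxylic acid cycle, of the respiratory chain and of pyruvate and glucose use mostly had higher values at day 4 (list medians of 0.95 to 1.55 in log2 change), and collagen and fibroblast genes mostly lower ones (medians of -0.74 and -0.85), but no gene passed the main test. edgeR's quasi-likelihood test with Benjamini-Hochberg adjustment called 0 of 9574 features higher and 0 lower at an adjusted p under 0.05, and the lowest adjusted p was 0.46. At an unadjusted p under 0.05 it had 793 features (8.28% of those tested), 427 features higher (4.46%) and 366 lower (3.82%). limma voom also called 0 in either direction, with 636 features at an unadjusted p under 0.05. DESeq2 called 41 genes higher (0.574% of the 7143 features to which it gave an adjusted p) and 5 lower (0.07%), and all 46 had an unadjusted p under 0.05 in edgeR. Without regard to any test, every day 4 library lay above every day 0 library for 87 features (0.909%) and below every one for 104 (1.09%). With groups of this size some features separate by chance alone. A lack of overlap below therefore describes a gene's values and is not a test.

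The 46 genes called by DESeq2 are named below as such; they were picked after their values were seen, since the rule for named genes depended on calls that edgeR did not make. For all 41 higher genes, iWAT548, iWAT550, iWAT551 and iWAT553 each lay above every day 0 library, whereas iWAT555 lay within or below the day 0 range for 16 of them. In 25 of the 41 the groups did not overlap at all. Of the 5 lower genes, 3 did not overlap. Without iWAT555, DESeq2 called 228 genes higher (2.25% of 10151) and 50 lower (0.493%), all 46 among them. edgeR then called 4 higher and 0 lower: Slc25a34 (log2 change 3.35), Cox7a1 (3.19), Hmgcs1 (2.14) and the unnamed reading frame 1700086O06Rik (3.00), each at an adjusted p of 0.0422 in edgeR's quasi-likelihood test. Without iWAT555 the groups did not overlap for 406 features higher (4.24%) and 259 lower (2.71%).

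Leaving out other libraries changed the DESeq2 counts as well. The features given an adjusted p changed too, so each count is given with its share of them. The count of higher genes was 7 without iWAT516 (0.0814% of 8596), 13 without iWAT550 (0.356% of 3653) and 22 without iWAT553 (0.241% of 9144). It was 27 without iWAT551 (2.38% of 1136) and 95 without iWAT522 (1.34% of 7090). The count of lower genes was 1 without iWAT550 (0.0274%), 2 without iWAT516 (0.0233%) or iWAT551 (0.176%) and 3 without iWAT518 (0.206%). It was 8 without iWAT548 (0.163%), 11 without iWAT517 (0.133%) and 39 without iWAT522 (0.55%). Of the 46 genes called with all libraries, 8 were called again without iWAT516, 14 without iWAT550, 20 without iWAT551 and 21 without iWAT553. The number was 22 without iWAT518, 28 without iWAT517 or iWAT548, and 37 without iWAT522. Most single calls named below therefore depend on which libraries are in the fit. Leaving out a library can only add to the features without overlap. Their number higher passed 1.5 times the full count without iWAT548, iWAT553, iWAT517 and iWAT522 (135 to 227), and their number lower without iWAT548, iWAT517, iWAT518 and iWAT522 (161 to 410).

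**Figure D2:**
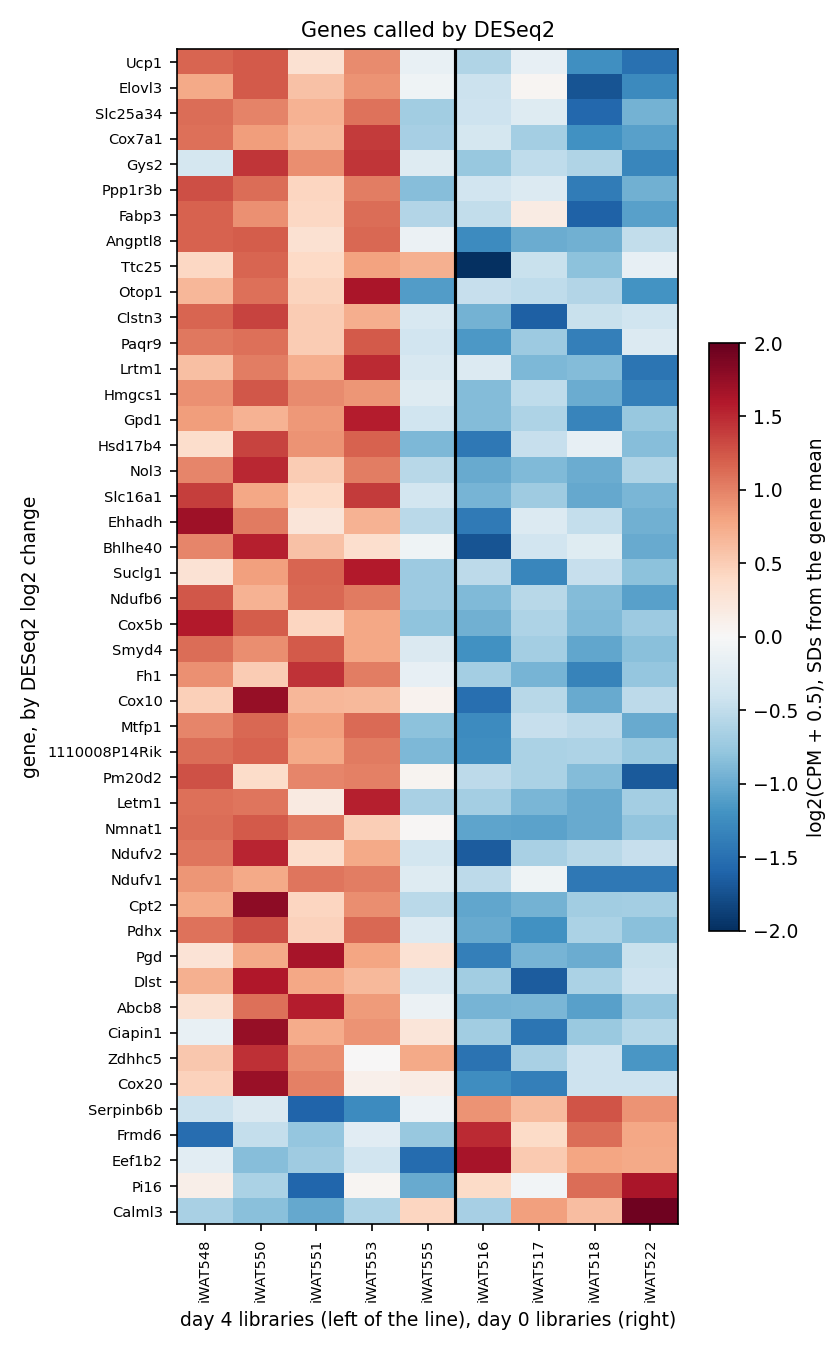
Levels of the 46 genes called by DESeq2 as log2(CPM + 0.5), in standard deviations from the gene's mean over the 9 libraries, with the 5 day 4 libraries left of the line and the 4 day 0 libraries right of it. In the 41 genes higher at day 4, iWAT548, iWAT550, iWAT551 and iWAT553 stand above every day 0 library, and iWAT555 lies within or below the day 0 range in 16.

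Among the genes named, Ucp1 had the largest log2 change. Ucp1, the uncoupling protein itself (GRCm38.p6, chr8:83290348-83298456), had 5722, 6362, 1234, 3815 and 559 CPM in the day 4 libraries iWAT548, iWAT550, iWAT551, iWAT553 and iWAT555, against 244, 540, 80.2 and 50.8 CPM in the day 0 libraries iWAT516, iWAT517, iWAT518 and iWAT522. Every day 4 library was above every day 0 library, although iWAT555 was only just above iWAT517. The means were 3538 ± 2598 CPM at day 4 (SD, n = 5) and 229 ± 224 CPM at day 0 (SD, n = 4), and the log2 change was 3.95 (SE 0.87; adjusted p = 0.46 in edgeR and 1.71e-04 in DESeq2).

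Cox7a1, a cytochrome c oxidase subunit isoform of muscle and brown fat (chr7:30184171-30186030), had 659, 476, 373, 949 and 76.2 CPM at day 4, against 111, 73.5, 38.5 and 44.6 CPM at day 0, with libraries in the order above throughout. Only iWAT555 lay inside the day 0 range. Elovl3, a fatty acid elongase of cold-exposed brown fat (chr19:46131897-46135694), had 54.0, 134, 39.1, 71.2 and 10.7 CPM at day 4, against 5.35, 13.7, 0 and 0.66 CPM at day 0. Its log2 change was 3.55 (SE 0.91) and that of Cox7a1 2.91 (SE 0.61); both were called higher by DESeq2 (adjusted p = 0.0075 and 4.6e-04). Otop1, a proton channel enriched in brown fat, followed the same library pattern at 157, 248, 125, 432 and 24.3 CPM at day 4 and 47.9, 45.9, 42.4 and 22.3 CPM at day 0 (log2 change 2.31, DESeq2 adjusted p = 0.0245). Of the 9 DESeq2 fits with 1 library left out, 5 called Elovl3 and 4 called Otop1.

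The lipid droplet protein gene Cidea had 123, 65.3, 26.3, 66.2 and 6.70 CPM at day 4, against 10.7, 17.4, 13.7 and 25.2 CPM at day 0. Here iWAT555 had less than any day 0 library. Dio2, the deiodinase that makes active thyroid hormone within brown fat, had 14.8, 54.1, 17.7, 27.3 and 4.46 CPM at day 4, against 1.49, 14.2, 1.30 and 1.97 CPM at day 0, where iWAT517 was high. Neither was called by DESeq2 with all libraries (log2 change 1.77 and 2.24, DESeq2 adjusted p = 0.184 and 0.15), and with 1 library left out Cidea was called in 1 of 9 fits (without iWAT555) and Dio2 in 2 (without iWAT517 or iWAT555).

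Of the 18 thermogenic and brown or beige adipocyte genes tested, out of 22 with a row, 16 had a positive log2 change, 8 of them at an unadjusted p under 0.05 in edgeR (4.46% of all features), and DESeq2 called 5 (0.574% of all features), which were Ucp1, Cox7a1, Elovl3, Otop1 and Fabp3. Their median log2 change was 1.55, against -0.01 over all 9574 features, of which 4713 were positive. A gene low in 1 group passes the filter only if it is high in another, so these counts describe the genes that passed and not the whole list. DESeq2 fits with 1 library left out called at least 2 of the 18, without iWAT516 or iWAT550 (0.0814% and 0.356% of all features). They called at most 8, without iWAT555 (2.25%), and all 9 fits called Ucp1 and Cox7a1. Cox8b, a further oxidase subunit isoform of brown fat, spread too widely to be called: it had 342, 4931, 1803, 6706 and 253 CPM at day 4, against 1122, 937, 740 and 17.7 CPM at day 0, so that iWAT548 and iWAT555 were below 3 of the 4 day 0 libraries. The potassium channel gene Kcnk3 had a log2 change of 1.05 (SE 0.58). Tmem26, a beige adipocyte surface marker, had -0.62 (SE 0.68).

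**Figure D3:**
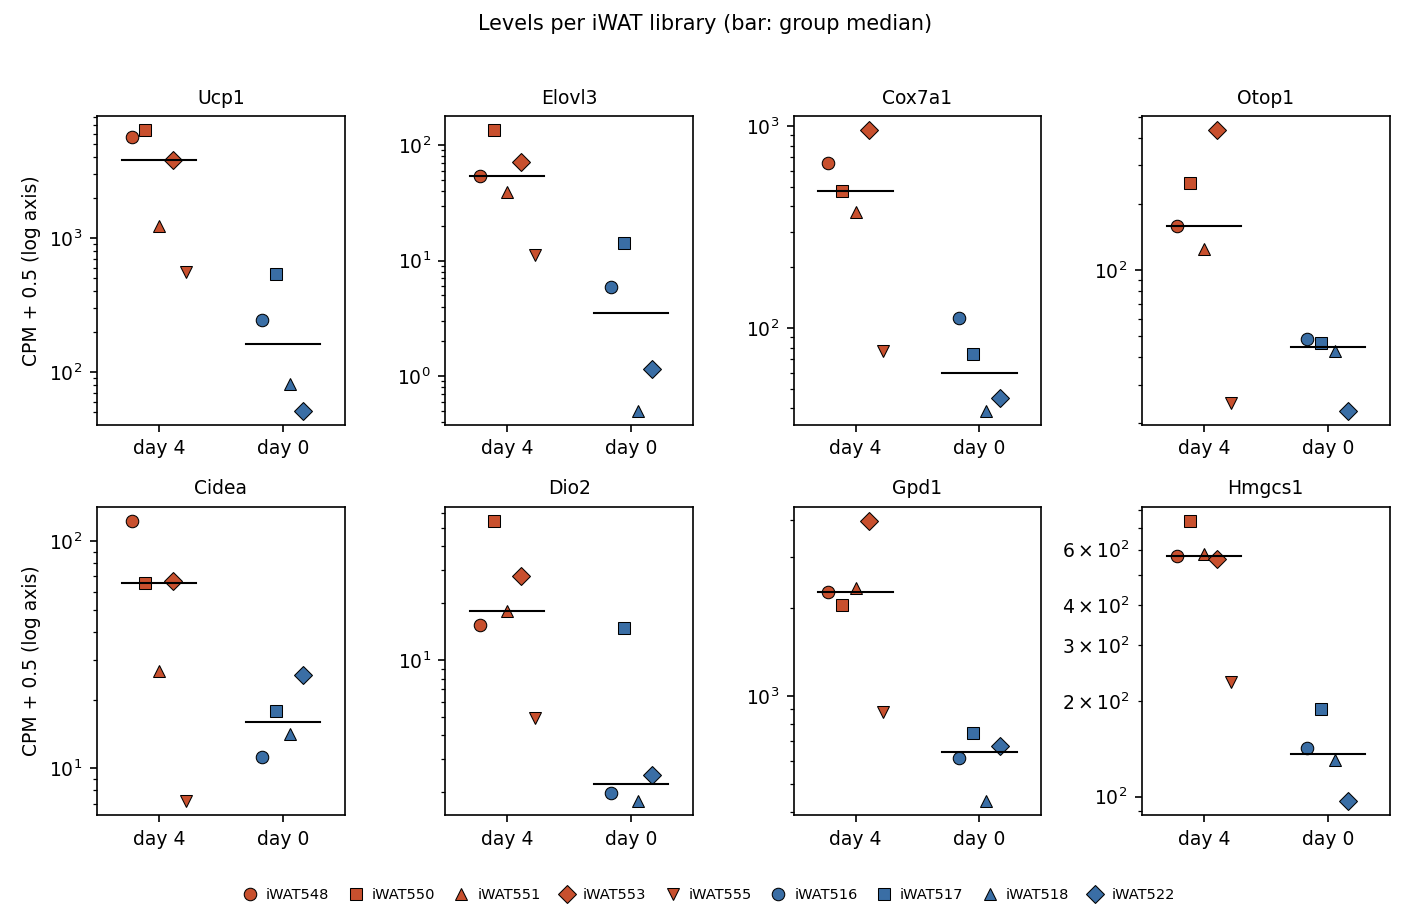
CPM + 0.5 (log axis) of 8 genes in each iWAT library, with the 5 day 4 libraries at left (red), the 4 day 0 libraries at right (blue) and a bar at the group median. Ucp1, Gpd1 and Hmgcs1 do not overlap between the groups, and in the other 5 genes iWAT555 lies within or below the day 0 range.

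Promoters of 3 genes are shown with 1 short match each, because these genes were called higher from 3 different lists (thermogenic genes, mitochondrial carriers and sterol synthesis). The sequences are RefSeq's for GRCm38.p6, on the gene's own strand, from 250 bases before to 50 after the start in RefSeq's promoter table. For Slc25a34 that start lies inside the outermost annotated end of the gene (chr4:141618819-141623891). In the Ucp1 (chr8:83290098-83290397, plus strand) and Slc25a34 (chr4:141623785-141624084, minus strand) windows the capitals mark a nuclear receptor half-site, AGGTCA or its reverse complement TGACCT. In the Hmgcs1 window (chr13:119690101-119690400, plus strand) they mark the sterol regulatory element TCACCCCAC, whose reverse complement is GTGGGGTGA; a half-site in the same window is not capitalised.
Ucp1: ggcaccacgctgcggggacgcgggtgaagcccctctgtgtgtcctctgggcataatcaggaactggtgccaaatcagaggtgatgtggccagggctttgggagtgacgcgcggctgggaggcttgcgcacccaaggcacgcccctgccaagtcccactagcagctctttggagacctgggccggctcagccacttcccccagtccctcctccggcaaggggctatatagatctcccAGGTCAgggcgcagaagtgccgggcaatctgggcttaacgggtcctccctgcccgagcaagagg
Slc25a34: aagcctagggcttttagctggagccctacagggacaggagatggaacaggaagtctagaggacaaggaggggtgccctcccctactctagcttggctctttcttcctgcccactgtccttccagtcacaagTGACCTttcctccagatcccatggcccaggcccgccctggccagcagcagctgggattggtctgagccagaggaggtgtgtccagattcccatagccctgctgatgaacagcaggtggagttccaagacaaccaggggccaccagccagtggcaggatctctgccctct
Hmgcs1: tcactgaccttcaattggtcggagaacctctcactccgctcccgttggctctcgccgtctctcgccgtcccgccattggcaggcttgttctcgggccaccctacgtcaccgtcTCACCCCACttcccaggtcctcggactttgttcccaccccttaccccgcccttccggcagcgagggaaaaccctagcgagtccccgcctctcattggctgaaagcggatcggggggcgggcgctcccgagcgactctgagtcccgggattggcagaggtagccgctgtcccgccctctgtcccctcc

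A window was found for 31 of the 41 genes that DESeq2 called higher and for 7467 tested genes. Both strands were searched. The half-site stood in 7 of the 31 windows (22.6%), those of Ucp1, Slc25a34, Hmgcs1, Cox5b, Fh1, Mtfp1 and Pm20d2, against 13.7% of the 7467. The sterol element stood in 1 (Hmgcs1, 3.23%), against 0.536%. The cyclic AMP response element TGACGTCA stood in 1 (Clstn3, 3.23%), against 3.46%, and the E-box CACGTG in 3 (Ndufv1, Slc16a1 and Smyd4, 9.68%), against 11.4%. Longer elements that hold a half-site, TCAAGGTCA of the ERR receptors and the PPAR direct repeat, stood in none of the 31 and in 0.308% and 0.054% of the 7467. These matches describe letters in the windows.

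Genes of the mitochondrial machinery mostly had positive log2 changes, smaller than those of the leading thermogenic genes. Of 32 genes of respiratory chain complex I, the entry point for electrons from NADH, all 32 had a positive log2 change, from 0.07 to 1.76 with a median of 1.12; 16 had an unadjusted p under 0.05 in edgeR (4.46% of all features) and DESeq2 called 3 (0.574% of all features). Ndufb6, an accessory subunit of the complex, had 1296, 896, 1220, 1132 and 348 CPM at day 4, against 313, 389, 314 and 272 CPM at day 0. Again only iWAT555 lay inside the day 0 range. Its log2 change was 1.60 (SE 0.41, DESeq2 adjusted p = 0.0055). Ndufv1 and Ndufv2, core subunits of the module that oxidises NADH, had log2 changes of 1.40 (SE 0.42) and 1.48 (SE 0.41). Both were called higher by DESeq2 with all libraries. Of the 9 fits with 1 library left out, 2 called Ndufv1 (without iWAT517 or iWAT555) and 4 called Ndufv2.

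Of 35 genes of complexes II to V, 32 were positive, with a median log2 change of 0.95. At an unadjusted p under 0.05 in edgeR there were 14 (4.46% of all features). DESeq2 called 1 (0.574% of all features), Cox5b, a subunit of cytochrome c oxidase, at 1.60 (SE 0.44). With 1 library left out, DESeq2 called 0 (without iWAT516) to 11 (without iWAT555) of the 32 complex I genes. It called 0 (without iWAT516, iWAT550 or iWAT553) to 13 (without iWAT555) of these 35, where the share of all features called higher ran from 0.0814% without iWAT516 to 2.38% without iWAT551 and was 2.25% without iWAT555. Assembly factors of cytochrome c oxidase were called as well. Cox10, which acts in the synthesis of its haem A, had a log2 change of 1.55 (SE 0.41) and Cox20 one of 1.21 (SE 0.35). Neither overlapped between the groups.

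In the tricarboxylic acid cycle, which feeds NADH to complex I, 13 of 14 genes were positive (median 1.31). DESeq2 called 3 of them (0.574% of all features). Fh1, fumarate hydratase, had 103, 80.0, 144, 111 and 52.7 CPM at day 4, against 38.4, 32.7, 25.4 and 36.1 CPM at day 0, with no overlap and a log2 change of 1.56 (SE 0.38). Suclg1, a subunit of succinyl-CoA ligase, had a log2 change of 1.67 (SE 0.47) and Dlst, the succinyltransferase of the oxoglutarate dehydrogenase complex, by 1.35 (SE 0.38). Idh2 was the single negative member at -0.21 (SE 0.60).

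Carriers of the inner mitochondrial membrane had the same sign: all 11 tested were positive (median 1.11, Ucp1 included). Slc25a34, a member of the carrier family, had 49.5, 41.0, 26.9, 47.2 and 3.42 CPM at day 4, against 5.35, 6.85, 0.65 and 2.29 CPM at day 0, for a log2 change of 3.06 (SE 0.70, DESeq2 adjusted p = 0.0045). The 4 other day 4 libraries were all above the day 0 range, and Slc25a34 was called in 5 of the 9 DESeq2 fits with 1 library left out. Ucp3, the uncoupling protein homologue of muscle and brown fat, had 0.446 to 7.89 CPM at day 4, against 1.05 to 1.97 CPM at day 0 (log2 change 1.85, SE 0.66, unadjusted p = 0.014), and had no DESeq2 adjusted p. Ucp2 was at 0.36 (SE 0.71). Letm1, a cation exchanger of the inner membrane, and Mtfp1, an inner membrane protein of mitochondrial fission, had log2 changes of 1.52 (SE 0.40) and 1.55 (SE 0.41), both called by DESeq2.

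**Figure D4:**
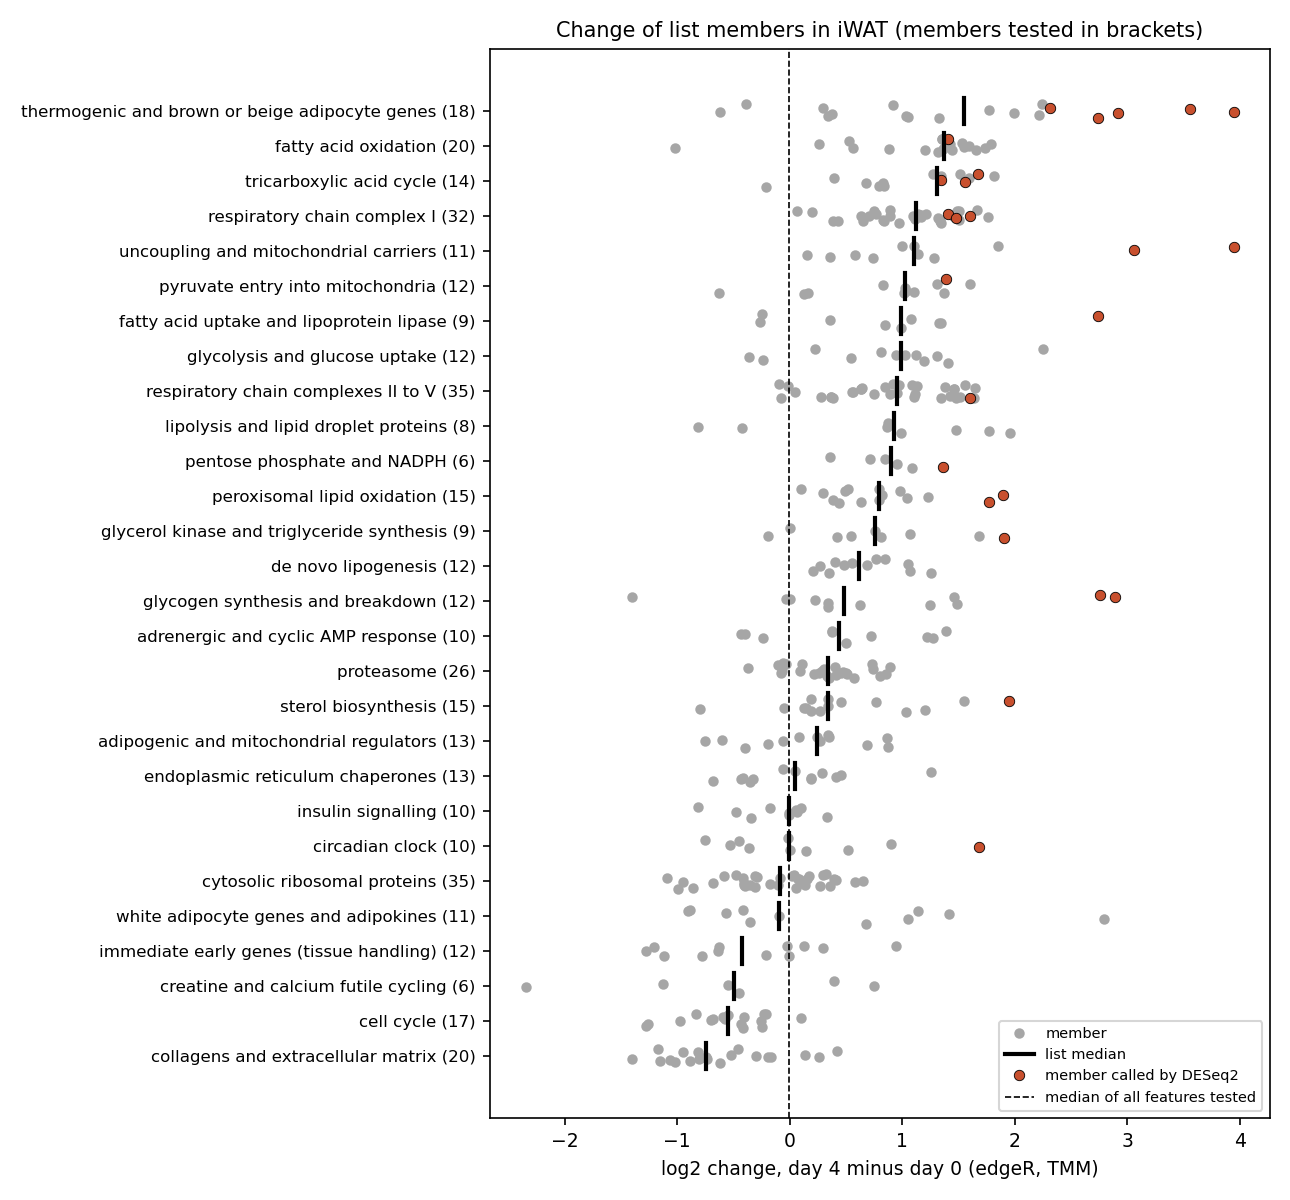
Log2 change (day 4 minus day 0, edgeR on TMM-scaled counts) of each tested member of gene lists of pathways and programmes, with the list median as a black bar, members called by DESeq2 in red and the median of all features as a dashed line. Thermogenic genes (median 1.55) and fatty acid oxidation (1.37) lie furthest right, and collagens and extracellular matrix (-0.74) furthest left among the lists shown.

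Fatty acid oxidation, the source of that fuel, was positive in 19 of 20 genes (median log2 change 1.37). Of these, 11 had an unadjusted p under 0.05 in edgeR (4.46% of all features). DESeq2 called 1 with all libraries (0.574% of all features) and 12 without iWAT555 (2.25%). With another library left out it called 0 to 3, where the share of all features was 0.0814% to 2.38%. Acadm and Acadl, the acyl-CoA dehydrogenases of medium and long chains, had log2 changes of 1.79 and 1.74, and Etfa, which passes their electrons on, 1.65, each at an unadjusted p under 0.05. Cpt2, which releases fatty acyl groups into the mitochondrial matrix, had 779, 1423, 641, 863 and 364 CPM at day 4, against 273, 287, 333 and 335 CPM at day 0, without overlap (log2 change 1.41, SE 0.40, DESeq2 adjusted p = 0.0225). Acsl1, the acyl-CoA synthetase of adipocytes, did not overlap either (1.60, SE 0.51, DESeq2 adjusted p = 0.063). The exception was Cpt1a, the liver isoform of the outer membrane transferase, at -1.02 (SE 0.45, unadjusted p = 0.039), with 19.99 to 113 CPM at day 4 and 80.2 to 226 CPM at day 0.

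All 15 tested genes of peroxisomal lipid oxidation were positive (median 0.79). DESeq2 called 2 of them (0.574% of all features), the bifunctional enzymes Ehhadh (1.77, SE 0.48) and Hsd17b4 (1.90, SE 0.55). With 1 library left out it called 0 (without iWAT516, iWAT522, iWAT550 or iWAT553) to 3 (without iWAT555, 2.25% of all features) of the list. Ehhadh and Hsd17b4 were each called in 4 of these 9 fits. Fatty acid uptake was led by Fabp3, the heart-type fatty acid binding protein, at 360, 242, 115, 328 and 26.0 CPM at day 4, against 29.4, 80.1, 5.22 and 12.1 CPM at day 0 (log2 change 2.74, SE 0.79, DESeq2 adjusted p = 0.029). Here iWAT555 lay inside the day 0 range, and Fabp3 was called in 4 of the 9 fits with 1 library left out. The list had 7 of 9 genes positive, with a median of 0.99. Fabp4, the fatty acid binding protein of all adipocytes, had a log2 change of 0.99 (SE 0.56) and lipoprotein lipase (Lpl) one of 1.08 (SE 0.49), and DESeq2 called neither with all libraries. Both were called in 1 of the 9 fits with 1 library left out, the one without iWAT555. There the list had 5 calls (2.25% of all features), against 0 or 1 in the others.

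Angptl8, a secreted regulator of lipoprotein lipase, was higher without overlap: 105, 109, 43.4, 102 and 28.4 CPM at day 4, against 8.62, 11.3, 11.7 and 19.3 CPM at day 0. Its log2 change was 2.599 (SE 0.54, DESeq2 adjusted p = 0.0019). In lipolysis, G0s2, an inhibitor of adipose triglyceride lipase, had 1486, 1536, 928, 1225 and 122 CPM at day 4, against 197, 301, 198 and 399 CPM at day 0. That made 4 day 4 libraries above all of day 0 and iWAT555 below all of it, and DESeq2 did not call G0s2 with all libraries (log2 change 1.95, adjusted p = 0.056) but did in 3 of the 9 fits with 1 library left out (without iWAT522, iWAT551 or iWAT555). Of 8 lipolysis and lipid droplet genes 6 were positive (median 0.93), 5 at an unadjusted p under 0.05 in edgeR (4.46% of all features). DESeq2 called 0 with all libraries and 0 to 4 with 1 library left out, 4 without iWAT555 (2.25% of all features). The lipid droplet coat gene Plin4 and Cidec were at -0.82 (SE 0.62) and -0.42 (SE 0.70).

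In triglyceride synthesis the lowest p was that of Gpd1, which makes glycerol 3-phosphate from a glycolytic intermediate (chr15:99717587-99725014). It had 2274, 2044, 2343, 3986 and 882 CPM at day 4, against 615, 744, 437 and 671 CPM at day 0. The groups did not overlap, and the log2 change was 1.90 (SE 0.43, DESeq2 adjusted p = 8.0e-04). Agpat2, an acyltransferase of phosphatidic acid synthesis, had a log2 change of 1.68, with overlap. Of the 9 genes on the list 8 were positive (median 0.76), with Dgat2, the acyltransferase of the last step, at 0.00 (SE 0.62). De novo lipogenesis was positive in all 12 genes tested, but by less (0.21 to 1.26, median 0.62). DESeq2 called 0 of them with all libraries, with 2 at an unadjusted p under 0.05 in edgeR (4.46% of all features). Fasn, fatty acid synthase, had 9834, 15891, 8489, 18712 and 2880.3 CPM at day 4, against 2148, 6174, 7564 and 5626 CPM at day 0.

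Among 12 glycogen genes, DESeq2 called 2 higher, Gys2 and Ppp1r3b (0.574% of all features). With 1 library left out it called 0 (without iWAT516, iWAT518 or iWAT551) to 3 (without iWAT517 or iWAT522) of the list. Over all these fits the share of all features called higher ran from 0.0814% to 2.38%. Gys2, glycogen synthase of liver type (chr6:142422612-142473130), had 36.3, 299.6, 165, 298 and 40.2 CPM at day 4, against 22.3, 29.8, 26.7 and 11.5 CPM at day 0. The groups did not overlap, although iWAT548 and iWAT555 lay close to day 0, and the log2 change was 2.89 (SE 0.69, DESeq2 adjusted p = 0.0045). Ppp1r3b, a subunit that brings protein phosphatase 1 to glycogen, had a log2 change of 2.76 (SE 0.68), with iWAT555 (3.12 CPM) inside the day 0 range of 1.30 to 6.85 CPM. It was called in 3 of the 9 fits with 1 library left out. The branching enzyme gene Gbe1 (1.24) and Ppp1r3c, a further glycogen-targeting subunit (1.46), had an unadjusted p under 0.05. Pygm, the muscle phosphorylase, stood at -1.40 (SE 0.94); the median over the 12 genes of the list was 0.49.

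Genes of glucose use had mostly positive log2 changes, and DESeq2 called few of them. Glycolysis and glucose uptake had 10 of 12 genes positive (median 0.99) and 0 called by DESeq2. At an unadjusted p under 0.05 in edgeR there were 3 (4.46% of all features). Counts of Eno1, Pgk1 and Pgam1 are uncertain because near-identical copies of these genes exist. The insulin-sensitive glucose transporter gene Slc2a4 had a log2 change of 1.02 (SE 0.61), and its sign turned to -0.32 when libraries under 2 M counts were left out. At the entry of pyruvate into mitochondria Pdhx, a component of the pyruvate dehydrogenase complex, was higher without overlap (1.39, SE 0.34, DESeq2 adjusted p = 0.0035), while Pdk4, the kinase that holds this complex back, had 826, 438, 531, 940 and 205 CPM at day 4, against 109, 118, 209 and 340 CPM at day 0 (1.60, SE 0.53, DESeq2 adjusted p = 0.11). Pgd, an NADPH-making enzyme of the pentose phosphate pathway, was called higher by DESeq2 at 1.36 (SE 0.36), and all 6 genes of that list were positive.

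Hmgcs1, which makes the HMG-CoA used for sterols (chr13:119690351-119708260), had the smallest p in edgeR of all list members. It had 573, 740, 582, 560 and 229 CPM at day 4, against 142, 188, 130 and 96.4 CPM at day 0, with no overlap. Its log2 change was 1.95 (SE 0.39, unadjusted p = 1.8e-04 in edgeR, DESeq2 adjusted p = 1.03e-04). The rest of sterol synthesis did not share this size: the list's median was 0.34 over 15 genes, 13 of them positive. Sc5d, a desaturase late in the pathway, had 1.55 at an unadjusted p of 0.0049.

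Other genes that DESeq2 called higher lay outside these pathways. Slc16a1, the monocarboxylate transporter MCT1, had 98.8, 63.8, 48.9, 100.2 and 28.3 CPM at day 4, against 18.7, 22.1, 17.6 and 19.0 CPM at day 0, without overlap (1.80, SE 0.41). Bhlhe40, a transcriptional repressor of the circadian clock, had 444, 693, 329, 273 and 196 CPM at day 4, against 55.0, 157, 174 and 96.7 CPM at day 0, also without overlap (1.68, SE 0.45). The other 9 clock genes tested were between -0.76 and 0.90, and DESeq2 called 0 of them. Clstn3, a calsyntenin, had a log2 change of 2.30 (SE 0.55), the membrane receptor gene Paqr9 by 2.09 (SE 0.46), Nol3, an inhibitor of apoptosis, by 1.81 (SE 0.42) and Nmnat1, a nuclear enzyme of NAD synthesis, by 1.504 (SE 0.37). Abcb8, a mitochondrial transporter, Ciapin1, of cytosolic iron-sulphur assembly, Zdhhc5, a palmitoyltransferase, Smyd4 and Pm20d2 were called at 1.23 to 1.59 and did not overlap. Ttc25 and Lrtm1 had log2 changes of 2.35 (SE 0.56) and 2.02 (SE 0.50), and the open reading frame 1110008P14Rik by 1.54 (SE 0.41).

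The adrenergic and cyclic AMP list, the signal that precedes these programmes, had 7 of 10 genes positive, a median of 0.43 and 0 called by DESeq2. At an unadjusted p under 0.05 in edgeR it had 3 (4.46% of all features). With 1 library left out DESeq2 called 0 to 2 of the list, the 2 being Prkaca and Adrb1 without iWAT555 (2.25% of all features). The 3 were Prkaca, the catalytic subunit of protein kinase A (1.22, SE 0.38), Prkar2b, a regulatory subunit of it (1.27, SE 0.53), and the beta-1 receptor gene Adrb1 (1.39, SE 0.53). Adrb3, the beta receptor of rodent adipocytes, was at 0.37 (SE 0.52), with 86.2 to 502 CPM at day 4 and 123 to 441 CPM at day 0. Of 13 transcriptional regulators of adipocytes and mitochondria, Ppargc1b, a coactivator of mitochondrial genes, had the smallest p (0.87, SE 0.37, unadjusted p = 0.032).

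White adipocyte genes were divided. Leptin (Lep) had 90.6, 56.7, 154, 214 and 53.6 CPM at day 4, against 33.6, 77.2, 9.78 and 47.9 CPM at day 0, and the groups overlapped only through iWAT517 (1.42, SE 0.55, DESeq2 adjusted p = 0.237). Resistin (Retn) was at 1.14 (SE 0.43). Adiponectin (Adipoq) was at -0.35 (SE 0.65) with 478 to 3612 CPM at day 4 and 759 to 5343 CPM at day 0, and its sign turned without iWAT522 (0.71) and with only the libraries on the high side of the gap (0.21). The median of the 11 genes was -0.10, 3 had an unadjusted p under 0.05 in edgeR (4.46% of all features), and DESeq2 called 0. Creatine kinase B (Ckb), an enzyme of the creatine cycle proposed as a second heat source, was at -0.45 (SE 0.57), and its sign turned in the same settings (0.30 and 0.67). Cytosolic ribosomal proteins were spread around 0 (median -0.09 over 35 genes), proteasome genes stood at a median of 0.34 over 26, endoplasmic reticulum chaperones at 0.05 over 13 and insulin signalling genes at -0.00 over 10.

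DESeq2 called 5 genes lower. Eef1b2, an exchange factor of translation elongation whose near-identical copies make its counts uncertain, had 567, 389, 425, 515 and 260 CPM at day 4, against 1700, 878, 1024 and 1002 CPM at day 0 (log2 change -1.42, SE 0.35, adjusted p = 0.0035). Frmd6, of the Hippo pathway, had 14.2, 25.3, 21.4, 29.0 and 21.6 CPM at day 4, against 72.8, 40.3, 60.0 and 49.5 CPM at day 0 (-1.32, SE 0.32), and Serpinb6b, a protease inhibitor, had a log2 change of -1.31 (SE 0.36). These 3 did not overlap between the groups. Pi16, a marker of adipose progenitors, had 37.2, 16.2, 5.50, 34.0 and 10.7 CPM at day 4, against 49.6, 30.8, 109 and 191 CPM at day 0 (-2.21, SE 0.59). It was called in 3 of the 9 fits with 1 library left out. Calml3, an epithelial calmodulin-like gene, had 0.61 to 11.3 CPM at day 4 and 1.49 to 142 CPM at day 0 (-3.63, SE 1.01). The 142 CPM was iWAT522 alone, with 1.49 to 21.9 CPM in the rest of day 0, and the 11.3 CPM was iWAT555. The log2 change of Calml3 ran from -5.19 to -1.82 over the alternatives.

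Other matrix and progenitor genes had the same sign as Pi16. Of 20 collagen and extracellular matrix genes 17 were negative (median -0.74), 6 at an unadjusted p under 0.05 in edgeR, against 3.82% lower among all features. DESeq2 called 0 of them with all libraries and 0 to 2 with 1 library left out. The calls were Col1a2 and Timp3 without iWAT517 (0.133% of all features lower), Lum and Timp3 without iWAT553 (0.0766%), and Col1a2 and Timp2 without iWAT555 (0.493%). Col1a2, a chain of type I collagen, had 58.1, 49.1, 95.9, 70.4 and 77.4 CPM at day 4, against 126, 112, 155 and 237 CPM at day 0 (-1.17, SE 0.34, DESeq2 adjusted p = 0.0501). The proteoglycan gene Lum (-1.40, SE 0.42) and the metalloproteinase inhibitor gene Timp2 (-0.89, SE 0.32) did not overlap either. The list had 3 genes lower without overlap, against 1.09% of all features. Of 9 fibroblast and progenitor markers 8 were negative (median -0.85), and 2, Thy1 and Fap, did not overlap (1.09% of all features). The summed level of the markers was 468 to 1156 CPM at day 4 and 1026 to 2042 CPM at day 0, and 1 marker at day 0 and 0 at day 4 had no count in any library. Cell cycle genes were negative in 16 of 17 (median -0.55), with 0 of them at an unadjusted p under 0.05 in edgeR and 0 called by DESeq2.

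Marker lists of other cells and tissues differed in sign, and their sums overlapped between the groups. All 12 skeletal muscle genes tested were negative (median -1.62) and their sum was 22.6 to 1102 CPM at day 4 and 42.4 to 3500 CPM at day 0, with iWAT517 and iWAT522 highest. Mammary or skin epithelial markers, to which the keratin gene Krt17 gave most counts in all libraries but iWAT522, summed to 99.9 to 3678 CPM at day 4 and 270 to 13661 CPM at day 0. All 11 macrophage features (median -0.71; 80.5 to 514 CPM at day 4, 217 to 730 CPM at day 0) and 7 of 8 T cell markers (median -0.62; 280 to 1038 CPM at day 4, 319 to 1594 CPM at day 0) were negative, as were 6 of 8 B cell markers (median -0.18; 672 to 3560 CPM at day 4, 1784 to 2586 CPM at day 0). At day 0 no count was found in any library for 1 T cell and 1 muscle feature, and at day 4 for 1 epithelial feature. Lymph node stroma markers summed to 408 to 1911 CPM at day 4 (median 1449) and 1003 to 1869 CPM at day 0 (median 1026), with 4 of 6 negative. Sperm and epididymis markers had 5 of 6 positive (median 1.47), but their median was -5.00 without iWAT555. Their median summed level was 6.66 CPM at day 4 and 92.9 CPM at day 0. The 8 endothelial markers were split evenly (median 0.09). Immediate early genes, a sign of tissue handling, had a median of -0.42 over 12 genes. The part of these tissues in the gene differences above was not tested.

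Day 2 had the same day 0 libraries as its baseline, so the changes at day 2 and day 4 are not independent and are set side by side only. Ucp1 averaged 229 ± 224 CPM at day 0 (SD, n = 4), 6465 ± 2704 CPM at day 2 (SD, n = 3) and 3538 ± 2598 CPM at day 4 (SD, n = 5), a log2 change of 4.82 at day 2 and 3.95 at day 4. Cidea had a log2 change of 2.85 at day 2 and 1.77 at day 4, Cox7a1 by 2.64 and 2.91, Gys2 by 1.52 and 2.89, and Hsd17b4 by 0.62 and 1.90. All 41 genes called higher by DESeq2 at day 4 had a positive change at day 2 and all 5 called lower a negative one. List medians at day 2 and day 4 were 1.63 and 1.55 for thermogenic genes, 0.54 and 1.31 for the tricarboxylic acid cycle, and -0.64 and -0.74 for extracellular matrix. The low side of the library axis held each of the day 2 libraries, so side and day cannot be told apart there.

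The last question was whether the day 4 change of iWAT differed from that of the other depots, tested as the difference of the changes in 1 fit of all 31 libraries over 11041 features. edgeR's quasi-likelihood test called 0 features for iWAT minus eWAT (lowest adjusted p 0.233; 448, or 4.06%, at an unadjusted p under 0.05) and 0 for iWAT minus iBAT (lowest adjusted p 0.0903; 636, or 5.76%). DESeq2 called 3 higher and 7 lower against eWAT, and 20 higher and 22 lower against iBAT; limma voom called 0 against eWAT, and 1 higher and 1 lower against iBAT. Without iBAT548, the iBAT library with the fewest features, edgeR called 1 higher and 2 lower against iBAT. No difference between depots is therefore shown for a gene below by edgeR, and the values are set side by side.

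Thermogenic genes had a median log2 change of 1.55 in iWAT, 0.00 in eWAT and 1.03 in iBAT over the same 18 genes. Ucp1 had a log2 change of 3.94 in iWAT, 1.37 in eWAT and 1.83 in iBAT, with a difference of 2.57 (SE 1.34) from eWAT and 2.11 (SE 1.31) from iBAT. Fabp3 differed by 4.50 (SE 1.18) and Slc25a34 by 4.07 (SE 1.09) from eWAT, where both had a negative change; both had an adjusted p of 0.51 in edgeR's test. Complex I had medians of 1.12, 0.28 and 0.25 in iWAT, eWAT and iBAT. For 29 of 32 genes the log2 change was higher in iWAT than in eWAT, and for the same number higher than in iBAT. Among all 11041 features the change was higher in iWAT for 51.0% and 61.7%. The median change of all features was -0.02 in iWAT, 0.02 in eWAT and -0.19 in iBAT. For de novo lipogenesis the medians were 0.62, 0.73 and 0.83, and for sterol synthesis 0.33, 0.28 and 0.42.

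Medians of matrix and macrophage genes had opposite signs in iWAT and eWAT. The medians of extracellular matrix genes were -0.74 in iWAT, 0.49 in eWAT and -0.16 in iBAT, those of fibroblast and progenitor markers -0.85, 1.06 and 0.02, and those of macrophage markers -0.72, 1.07 and -1.06. Fbn1, fibrillin, had the smallest p of iWAT minus eWAT, at -3.20 (SE 0.63, edgeR adjusted p = 0.233), and Pi16 stood at -3.49 (SE 0.78, edgeR adjusted p = 0.444). Against iBAT the smallest p was that of Tesc (edgeR adjusted p = 0.0903), and Lrtm1, higher at day 4 in iWAT, differed by 3.54 (SE 1.02, edgeR adjusted p = 0.691).

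**Figure D5:**
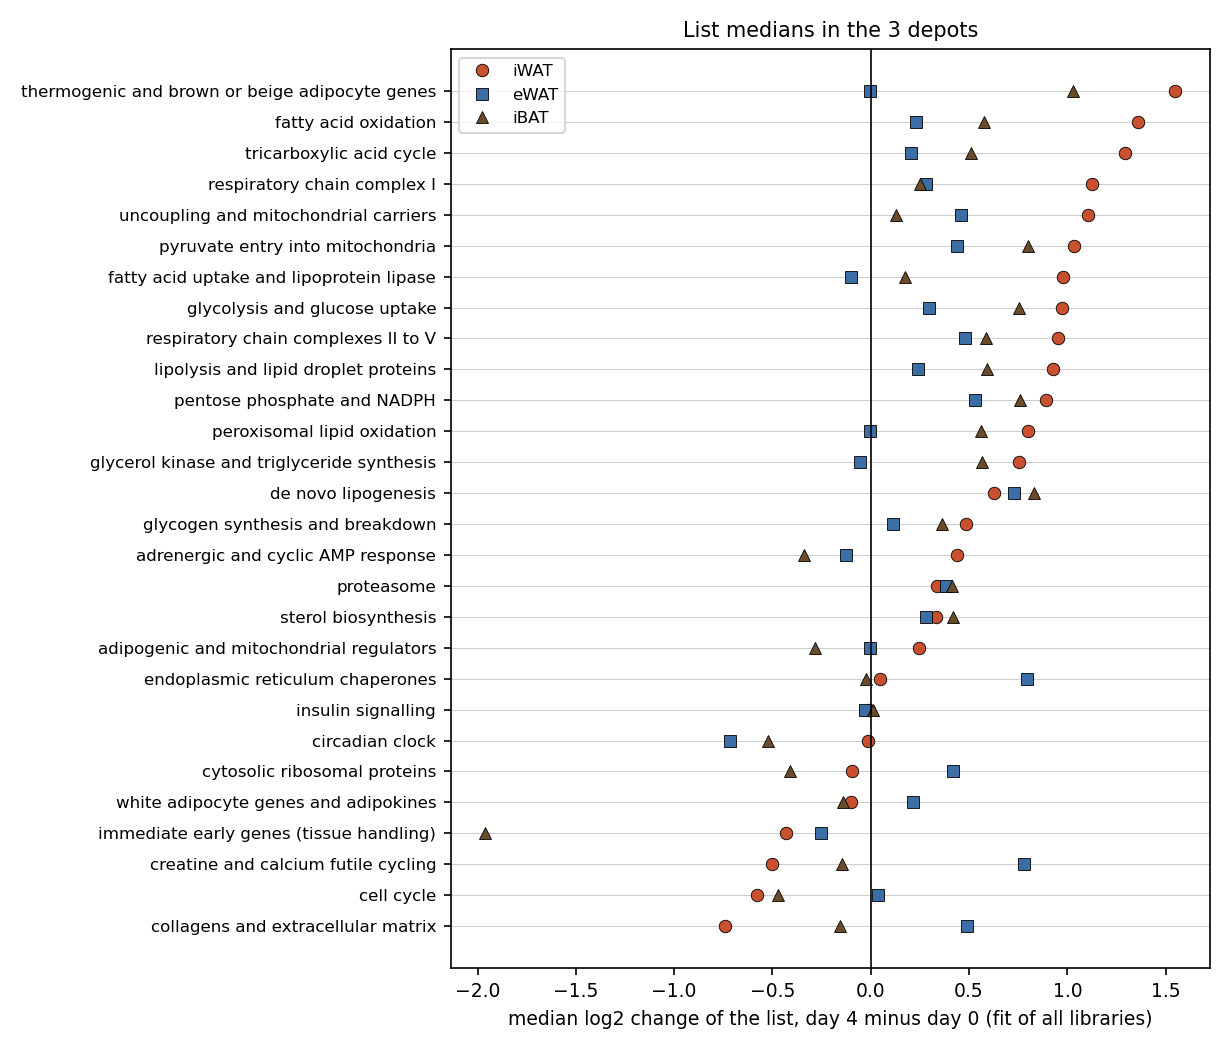
Median log2 change (day 4 minus day 0, fit of all libraries) of gene lists of pathways and programmes in iWAT (circles), eWAT (squares) and iBAT (triangles). Thermogenic genes stand at 1.55 in iWAT, 0.00 in eWAT and 1.03 in iBAT, and collagens and extracellular matrix at -0.74, 0.49 and -0.16.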

How the data were processed

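RNA-seq libraries of inguinal fat were compared between day 4 and day 0 of cold, grouped by the labels. The authors deposited 1 table per depot of raw counts per RefSeq accession. Per the submitters' processing notes, reads were handled with cutadapt and BWA on build mm10; versions, the counting step, the annotation release and strand use are not given in the sources used here, so reads of a gene and of its antisense or overlapping neighbour may be mixed. The tables hold no 0 and no value below 1, and a missing value was read as 0. Accessions were named from the RefSeq annotation of GRCm38.p6 (16138 of 16418) or GENCODE M21 (100); 180 had no name and 771 share a symbol with another accession.

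The main test, run in R 4.3.3, was that of edgeR 4.0.16. Features were kept by filterByExpr at a minimum count of 10 and a minimum total of 15, sizes were scaled by TMM, and robust quasi-likelihood F-tests (two-sided) were made over all 12 iWAT libraries with 1 mean per day, with Benjamini-Hochberg adjustment at 0.05. Tested features held 98.1% to 99.8% of the counts of the 9 libraries. Depots were compared in 1 fit of all 31 libraries. DESeq2 1.42.0 and limma 3.58.1 (voom) were alternatives, beside other scalings, no filter, the library score (prior count 2, genes of at least 5 CPM per depot) and leaving out each library. An SE is the absolute log2 change over the square root of its F. Marker sums use CPM of plain totals. Molecules carry no identifiers, and replicates differed by more than counting error, with a chi-square of 23.3 to 169 per degree of freedom; no replicate pair agreed within sampling noise. The script was tested on simulated data.

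The comparison, the 42 gene lists and the tests were chosen with earlier results of these data known. The rule for named genes took 20 fixed genes (15 were tested), the largest changes past 0.05 without overlap, list members past 0.05 or, failing that, the member with the smallest p, and the largest differences between depots past 0.05. With 0 edgeR calls, the parts resting on calls were empty, and the 46 genes called by DESeq2, the promoters shown and further list members were chosen after their values were seen. Some list members were not analysed here.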

Additional observations from a re-analysis of the deposited data

Results flagged for a closer look

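Within the 5 day 4 and the 4 day 0 libraries, Dixon's test asked whether 1 library stood far from the others, for 82 named genes, 14 summed marker lists and the library totals. It picked out 17 of 194 groups. For normally distributed values chance alone picks out about 1 in 20. The CPM were not transformed and some groups share genes, so the 17 cannot be read against that rate. The causes were not tested.

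At day 4, iWAT555 stood apart in 5 of them: 3676 CPM of summed sperm and epididymis markers (1.87 to 26.7 CPM in the others), 280.8 CPM of the epididymal gene Spink8 (0 to 5.57 CPM), 8.78 CPM of the epithelial cadherin gene Cdh1 (0 to 1.66 CPM), 11.31 CPM of Calml3 (0.61 to 1.66 CPM) and 25.15 CPM of Mtfp1, the lowest value (76.4 to 95.9 CPM). iWAT548 had 571.7 CPM of Xbp1, a transcription factor of secretory cells (18.2 to 39.4 CPM). iWAT550 had 106.3 CPM of Cox10 (36.6 to 53.8 CPM), and iWAT551 had 20.77 CPM of the endothelial receptor gene Flt1 (9.11 to 11.4 CPM).

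At day 0, iWAT522 stood apart in 5 groups: 982.7 CPM of summed sperm and epididymis markers (9.07 to 121 CPM in the others), 807.7 CPM of endothelial markers (295 to 322 CPM), 5343 CPM of Adipoq (759 to 1440 CPM), 141.6 CPM of Calml3 (1.49 to 21.9 CPM) and 12.13 CPM of the complement gene C1qc (3.26 to 4.76 CPM). iWAT517 was high in 14.24 CPM of Dio2 (1.30 to 1.97 CPM), 58.26 CPM of the fast muscle gene Pvalb (0.297 to 8.52 CPM) and 1869 CPM of summed lymph node stroma markers (1003 to 1028 CPM). iWAT516 had 24.38 CPM of Spink8 (0.656 to 2.61 CPM).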

How the results depend on the processing

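Of 82 named genes, 77 kept the sign of their log2 change in every alternative run for them, 19 for most and 14 to 18 for the 4 low genes C1qc, Calml3, Hba-a2 and Spink8, as did 20 of 21 list medians. The cause of the changes below was not tested. edgeR's counts of 0 became 1 higher with only the libraries on the high side of the gap (Gys2). With 1 library left out they were 0 to 4 higher and 0 to 0 lower. DESeq2 gave 41 and 5, and with 1 library left out 7 to 228 higher and 1 to 50 lower. As shares of the 1136 to 10151 features with an adjusted p, these were 0.0814% to 2.38% and 0.0233% to 0.55%. Features without overlap then ran from 106 to 406 higher and from 121 to 410 lower; these counts and those of DESeq2 with 1 library left out were added after seeing the data. Against eWAT, DESeq2 gave 3 higher and 7 lower, and 0 to 0 with 1 library left out in edgeR. Against iBAT, DESeq2 gave 20 and 22, voom 1 and 1, the library score 6 and 2, and edgeR with 1 library left out 0 to 1 and 0 to 2. Signs turned for Ckb (0.67 on the high side, -0.84 to 0.30 with 1 library left out, positive without iWAT522), Adipoq (0.21, and -0.89 to 0.71, positive without iWAT522), Slc2a4 (-0.32 with libraries under 2 M counts left out), Xbp1 (-0.76 on the high side, -1.08 without iWAT548 to 1.83), Hba-a2 (-0.11 without iWAT548, its counts uncertain because Hba-a1 is near-identical) and the median of sperm and epididymis markers (-5.00 without iWAT555 to 3.25). Scaling by library size alone moved the median of all features to -0.11. The low side of the gap could not be fitted, with 1 day 0 library there.

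Label numbers do not recur between day 4 and day 0 of iWAT. No paired analysis was possible because these groups share fewer than 2 numbers. Numbers recur between depots within a day, but same-numbered libraries did not deviate together (6 of 23 pairs with r over 0.1, from -0.44 to 0.36). These values cannot decide whether same-numbered libraries came from the same mouse, since depots of 1 mouse need not deviate together. The main fit of the depots did not pair them. With the label number as a replicate block edgeR called 0 and 0 for both depot differences, with 371 features at an unadjusted p under 0.05 against eWAT and 592 against iBAT. Libraries of 1.5 to 1.6 M counts limit low genes.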
